A study of Rattus norvegicus albus with 6 samples.

Results

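The messages of the β-catenin machinery and of the proteins that FJ9 and ICG-001 bind were followed in cultured rat hepatic stellate cells, the liver cells that become matrix-producing myofibroblasts in fibrosis. The 10 genes were named by role, with earlier results of these data known: Ctnnb1, Crebbp, Ep300, Dvl1, Dvl2, Dvl3, Gsk3b, Apc, Axin1 and Tcf7l2. Of these, 8 were measured, each by 1 probe set that carries that gene's symbol alone, out of 14322 genes named in this way. Dvl2 and Tcf7l2 had no such probe set and were not analysed here. All 8 measured genes were among the 10025 genes left after the lowest 30% by mean level were set aside.

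Primary stellate cells were activated by 7 days on plastic in low-glucose medium with 10% serum, and each of 6 groups was measured on 1 Affymetrix array. The Ad.DKK-1 group received an adenovirus expressing DKK-1, a secreted antagonist of the Wnt co-receptors LRP5 and LRP6, and was set against Ad.GFP, an adenovirus expressing green fluorescent protein. Both viruses were used at a multiplicity of infection of 200 for 24 h in 5% serum, and serum was then withdrawn for 24 h. The ICG-001 group received 10 µM of that compound, and the FJ9 group 200 µM, each for 24 h without serum and each set against an array of its own vehicle. The labels give no genotype, strain or age. RNA on each array was pooled from 3 to 4 rats before labelling, so the spread between animals is not visible and no difference between a treated array and its control has a replicate or a p-value. All values are log2 expression values, and a difference of 1 on that scale is a doubling.

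In the canonical Wnt pathway, a Frizzled receptor recruits Dishevelled, which disables a complex of Axin, APC and the kinase GSK3β that otherwise marks β-catenin for destruction. β-catenin that escapes enters the nucleus, binds TCF/LEF factors and recruits the acetyltransferases CBP or p300 to activate target genes. FJ9 was made to block the binding of Dishevelled to Frizzled, and ICG-001 binds CBP and not its relative p300, so that both compounds act on proteins. Much of the control of β-catenin likewise takes place on the protein, which these arrays do not measure. In stellate cells the pathway is studied for its part in activation and fibrosis.

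The labelled cell type was checked against its markers. Of 16 stellate and myofibroblast markers, 15 were measured and 14 were past the level filter, against 3 of 11 measured macrophage and leukocyte markers, 1 of 5 endothelial, 2 of 8 hepatocyte and 4 of 6 cholangiocyte and mesothelial markers. The Kupffer cell marker Clec4f and the leukocyte gene Ptprc were under the filter. The macrophage and leukocyte genes past it were Cd68, Csf1r and Cd14. The summed signal of that list, on the log2 scale, was 11.07 with Ad.DKK-1, 10.69 with ICG-001 and 10.59 with FJ9, against 12.05, 11.64 and 11.70 on the controls of each, differences of −0.97, −0.95 and −1.11. Cd14 weighs most in that sum, with levels up to 11.63, while Cd68 reached 8.44. Cd14 alone differed by −0.95, −1.11 and −1.47, so the size of the shift in the sum is largely set by that gene. Most other genes of the list were lower too, among them Csf1r (−0.92, −1.17 and −1.37) and, under the filter, Ptprc (−1.15, −0.92 and −1.05). The exceptions were Clec4f, 0.40 higher with Ad.DKK-1 and 0.23 higher with FJ9, and Cd163, 0.21 higher with FJ9. The stellate sum differed by −0.53, −0.23 and −0.38. The cholangiocyte and mesothelial sum differed by −1.01, −0.83 and −0.41, the endothelial sum by −0.23, 0.01 and −0.36, and the hepatocyte sum by −0.06, −0.38 and 0.03. In the cholangiocyte and mesothelial list Wt1 had the highest level, up to 9.30, and differed by −1.77, −1.44 and −0.91. In the same list Krt19 differed by −0.21, −0.02 and −0.05, and Krt8 by −0.52, 0.23 and 0.51. Whether these shifts bear on the values below was not tested, and fewer cells of a type cannot be told apart from less RNA per cell. Dkk1 itself read 6.01 on the Ad.DKK-1 array and 5.85 on the Ad.GFP array, under the level filter, and the labels do not say which DKK-1 sequence the virus carries.

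The yardstick for the differences below was the pair of vehicle arrays, 2 pools that received no inhibitor. Across 10025 genes the difference between vehicle for FJ9 and vehicle for ICG-001 had a standard deviation of 0.34, and 7.64% of genes were at least 1.5-fold apart. None of the 8 genes reached 1.5-fold there, and their differences ran from −0.29 (Gsk3b) to 0.32 (Dvl1). That yardstick covers how far 2 such pools differ, array error included, and not the spread of any single gene.

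Both measured Dishevelled genes read lower with FJ9, the compound directed at their proteins, and lower with Ad.DKK-1. Dvl1 (Entrez gene 83721) read 7.40 with FJ9 and 8.02 with its vehicle. It read 7.25 with Ad.DKK-1 against 7.93 with Ad.GFP, and 7.76 with ICG-001 against 7.70 with its vehicle. The Ad.DKK-1 and FJ9 arrays were thus the lowest, and the ICG-001 array lay among the controls. The differences were −0.63 with FJ9 (1.54-fold lower), −0.67 with Ad.DKK-1 (1.59-fold lower) and 0.06 with ICG-001. Dvl1 also differed most among the 8 genes between the vehicle arrays, and measured against the vehicle of ICG-001 the FJ9 difference was −0.30, under 1.5-fold. Measured against the vehicle of FJ9, the ICG-001 difference was −0.26, so its sign depended on the vehicle. With median centring the Ad.DKK-1 difference was −0.58, and with repeated quantile normalization −0.57, both just inside 1.5-fold.

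Dvl3 (Entrez gene 303811), a close relative of Dvl1 with the same scaffold role, read 8.78 with FJ9 and 9.39 with its vehicle. The other values were 8.80 with Ad.DKK-1 against 9.18 with Ad.GFP, and 9.17 with ICG-001 against 9.41 with its vehicle. All 3 treated arrays lay below all 3 controls, although the ICG-001 array was only 0.0064 below the Ad.GFP array. Dvl3 differed by −0.61 with FJ9 (1.53-fold lower), −0.38 with Ad.DKK-1 and −0.23 with ICG-001, and by −0.02 between the vehicle arrays. With FJ9 it stayed past 1.5-fold against the other vehicle too, at −0.63. The FJ9 differences of Dvl1 and Dvl3 were 0.02 apart, and 23.4% and 24.6% of all genes had a larger absolute difference in that comparison.

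**Figure D1:**
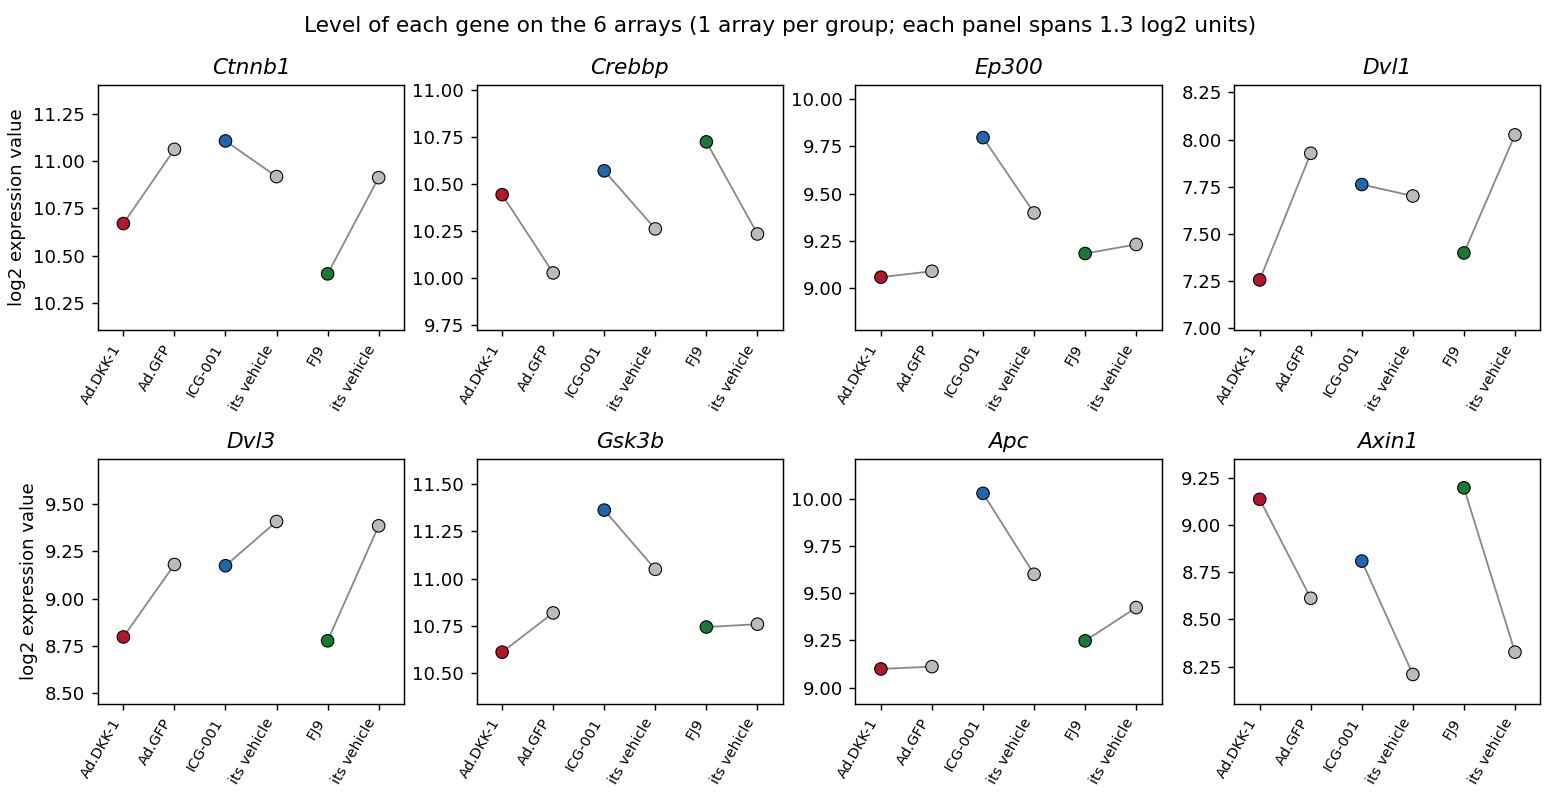
Log2 expression values of the 8 measured genes on the 6 arrays, 1 panel per gene, with each treated array (coloured) to the left of its control (grey) and joined to it by a line. Axin1 and Crebbp were higher on all 3 treated arrays than on any control, Dvl3 was lower on all 3, and Ep300, Gsk3b and Apc were highest on the ICG-001 array. Vertical axes start at different levels and all span the same height, so slopes can be compared between panels and levels cannot.

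Of the destruction complex, the scaffold gene Axin1 differed in every treatment in the same direction. Apc and Gsk3b had their largest differences from their own controls with ICG-001, both under 1.5-fold. Axin1 (Entrez gene 79257) read 9.14 with Ad.DKK-1 and 8.61 with Ad.GFP, 8.81 with ICG-001 and 8.21 with its vehicle, and 9.20 with FJ9 and 8.33 with its vehicle. All 3 treated arrays were above all 3 controls, the nearest pair being 0.20 apart. Its differences were 0.53 with Ad.DKK-1, 0.60 with ICG-001 (1.52-fold) and 0.87 with FJ9 (1.83-fold), the largest absolute difference of any of the 8 genes. In the FJ9 comparison 11.9% of all genes had a larger absolute difference, and the FJ9 difference from the other vehicle was 0.99.

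The other Axin1 differences lay so close to 1.5-fold that the processing decided them. With ICG-001 the difference was 0.51 after loess correction and 0.48 against the other vehicle, both inside 1.5-fold, and with Ad.DKK-1 it was 0.62 after median centring, past 1.5-fold. The direction held in each of these settings.

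Apc (Entrez gene 24205), the large scaffold of the complex, read 9.10 with Ad.DKK-1 and 9.11 with Ad.GFP, and 9.25 with FJ9 and 9.42 with its vehicle. On the ICG-001 array it read 10.03, against 9.60 with its vehicle. That array was the highest of the 6 and its vehicle the next, and both infected arrays were the lowest. The differences were −0.01 with Ad.DKK-1, −0.18 with FJ9 and 0.43 with ICG-001 (1.35-fold). The last one passed 1.5-fold after median centring (0.60), which adds 0.17 to every ICG-001 difference. It also passed against the other vehicle (0.61), Apc differing by −0.18 between the vehicle arrays.

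Gsk3b (Entrez gene 84027), which encodes the kinase that tags β-catenin, had the same order at the top. It read 11.36 with ICG-001 and 11.05 with its vehicle, 10.74 with FJ9 and 10.76 with its vehicle, and 10.61 with Ad.DKK-1 and 10.82 with Ad.GFP. Its difference with ICG-001 was 0.31, and 0.61 against the vehicle of FJ9. With FJ9 the difference was −0.02 and with Ad.DKK-1 −0.21, both smaller than the −0.29 by which the vehicle arrays differed.

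Ctnnb1 (Entrez gene 84353), the gene of β-catenin, read 10.40 with FJ9 and 10.91 with its vehicle, 10.67 with Ad.DKK-1 and 11.06 with Ad.GFP, and 11.11 with ICG-001 and 10.92 with its vehicle. The FJ9 array was the lowest and the Ad.DKK-1 array the next. The other 4 arrays lay within the 0.34 yardstick of each other, and the vehicle arrays differed by −0.01. The Ad.DKK-1 array was also within 0.34 of each vehicle array, though not of the Ad.GFP and ICG-001 arrays. Ctnnb1 was 1.42-fold lower with FJ9 (−0.51), 1.31-fold lower with Ad.DKK-1 (−0.39) and 1.14-fold higher with ICG-001 (0.19). In no treatment did it reach 1.5-fold, and over all the alternative settings the FJ9 difference stayed between −0.52 and −0.49 and the Ad.DKK-1 difference between −0.39 and −0.30.

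Crebbp (Entrez gene 54244), which encodes CBP, the protein bound by ICG-001, read 10.57 with ICG-001 and 10.26 with its vehicle, 10.44 with Ad.DKK-1 and 10.03 with Ad.GFP, and 10.72 with FJ9 and 10.23 with its vehicle. All 3 treated arrays were above all 3 controls, with 0.18 between the nearest pair. The difference was smallest with ICG-001 itself (0.31, 1.24-fold) and larger with Ad.DKK-1 (0.42, 1.33-fold) and FJ9 (0.49, 1.40-fold), none past 1.5-fold. The vehicle arrays differed by −0.03. These 3 treatment differences lay closer together than the standard deviation between the vehicle arrays over all genes. After median centring they were nearly equal, at 0.48 with ICG-001, 0.51 with Ad.DKK-1 and 0.49 with FJ9. Over all the alternative settings the ICG-001 difference ran from 0.23 to 0.48, so the size of this contrast depended on the processing.

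Ep300 (Entrez gene 170915), which encodes p300, followed another order. It read 9.80 with ICG-001 and 9.40 with its vehicle, 9.06 with Ad.DKK-1 and 9.09 with Ad.GFP, and 9.18 with FJ9 and 9.23 with its vehicle. Its difference was 0.40 with ICG-001 (1.32-fold), −0.03 with Ad.DKK-1 and −0.05 with FJ9. With ICG-001 the differences of Crebbp and Ep300 were 0.09 apart, and against the other vehicle they were 0.34 and 0.57, 0.23 apart. Crebbp exceeded Ep300 in its difference by 0.45 with Ad.DKK-1 and by 0.54 with FJ9 (0.68 against the other vehicle). With 1 array per group these gaps between the paralogs have no test. Ep300 and Apc had their lowest values on the 2 infected arrays, and virus, serum during infection and the longer culture cannot be told apart there.

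**Figure D2:**
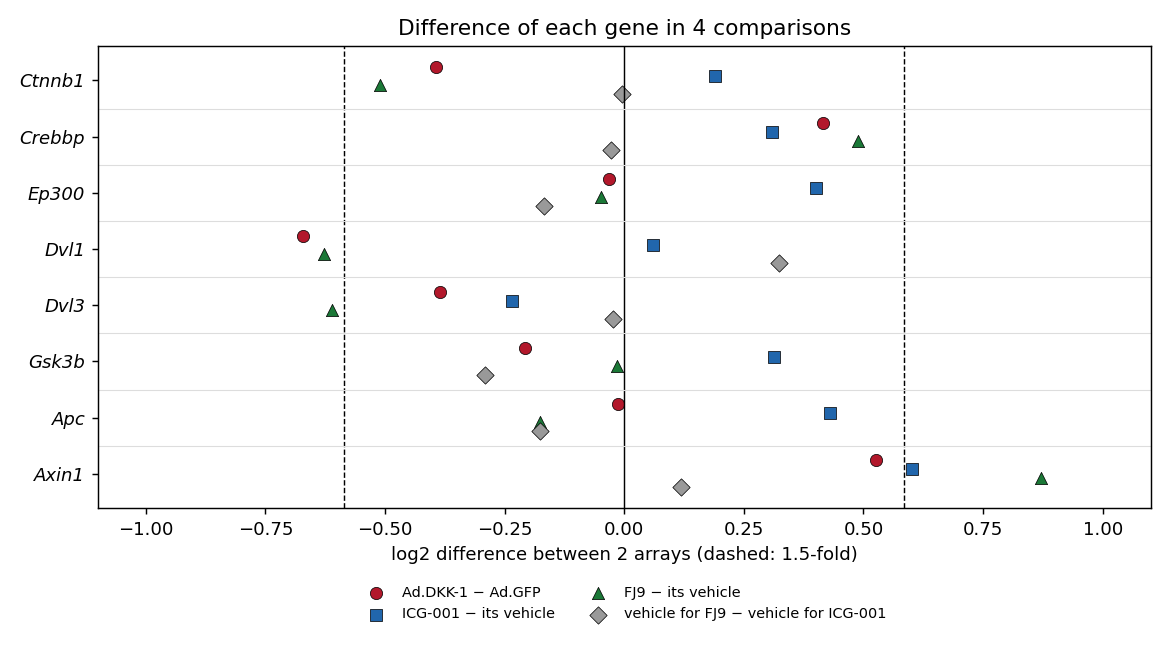
Log2 difference of each of the 8 genes, treated minus own control for Ad.DKK-1 (circles), ICG-001 (squares) and FJ9 (triangles) and vehicle for FJ9 minus vehicle for ICG-001 (diamonds), each from 1 array a side. Dashed lines mark 1.5-fold, which Axin1 passed with ICG-001 and FJ9, Dvl1 with Ad.DKK-1 and FJ9, and Dvl3 with FJ9.

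With Ad.DKK-1, 1 of the 8 genes was at least 1.5-fold from its control (Dvl1, lower), while 35.2% of all genes were, 14.5% higher and 20.8% lower. With ICG-001 it was 1 of 8 (Axin1, higher) beside 25.7% of all genes, 12.6% higher and 13.1% lower. With FJ9 it was 3 of 8 (Dvl1 and Dvl3 lower, Axin1 higher) beside 26.4%, 11.6% higher and 14.8% lower. Of the 24 differences over the 3 treatments, 5 were past 1.5-fold and none reached 2-fold. The median difference was −0.12 with Ad.DKK-1, 0.31 with ICG-001 and −0.11 with FJ9, beside −0.07, 0.01 and 0.01 over all genes. With ICG-001, 7 of 8 genes read above the vehicle array, Dvl3 being the exception, while 50.7% of all genes did. Dvl1 was above by only 0.06, and against the other vehicle it differed by −0.26, below it. With Ad.DKK-1 and with FJ9, 2 of 8 read above the control, Crebbp and Axin1 in both, while 46.2% and 50.8% of all genes did.

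Treated and control arrays did not overlap for 3 of the 8 genes (Crebbp and Axin1 above, Dvl3 below), and 27.1% of all genes were separated in this way. The mean difference over the 3 pairs was tested with limma across all 10025 genes, with the pair as a block and Benjamini-Hochberg adjustment. The pairs hold different treatments and do not replicate one another, so the fit tests their mean difference, and large values in some treatments can carry a call. Each gene has only 2 residual degrees of freedom of its own. The eBayes step moderates each variance with those of all genes, so the p-values also rest on the other genes. In that fit 8.58% of genes had an adjusted p under 0.05, and none of the 8 did, while 2 of them (Axin1 and Crebbp) and 2502 genes in all had an unadjusted p under 0.05. Axin1 came nearest, with a mean difference of 0.67 (SE 0.22, limma adjusted p = 0.072), followed by Crebbp at 0.40 (SE 0.18, limma adjusted p = 0.19) and Dvl3 at −0.41 (SE 0.21, limma adjusted p = 0.24). Ctnnb1 had a mean of −0.24 (SE 0.20, limma adjusted p = 0.47).

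**Figure D3:**
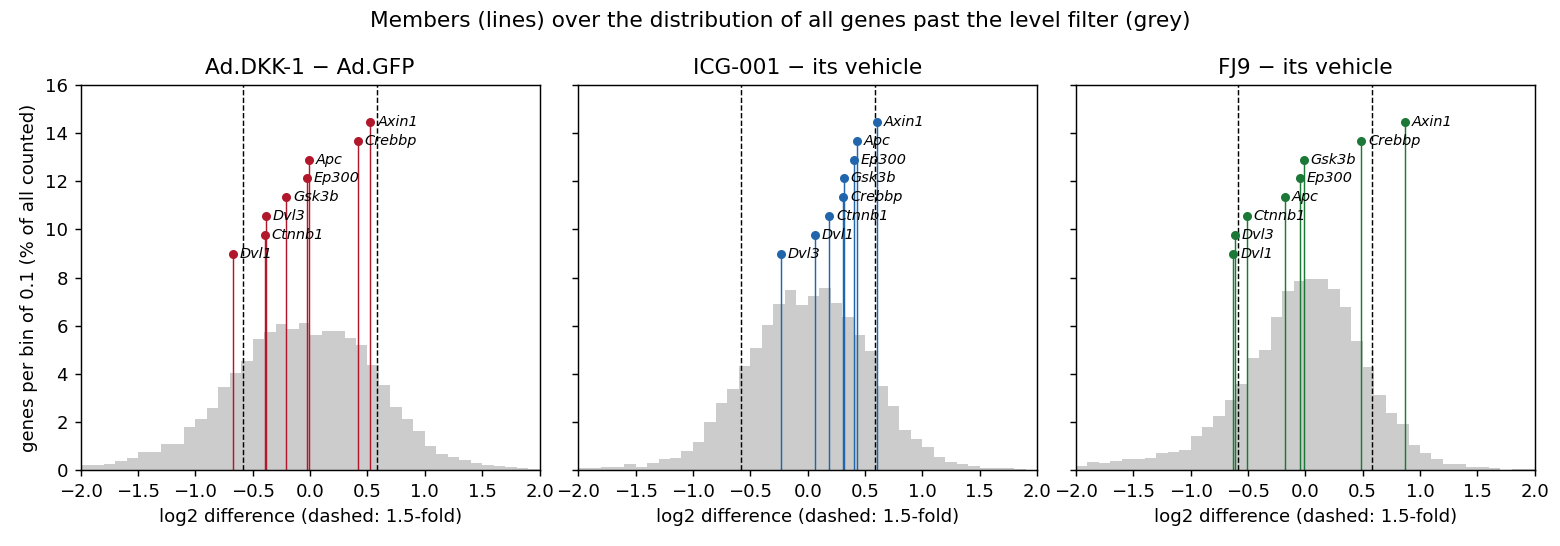
Log2 differences of the 8 genes (vertical lines with names, heights only for legibility) over the histogram of all 10025 genes past the level filter, as a percent of genes per bin, for Ad.DKK-1, ICG-001 and FJ9, each minus its own control. Most of the 8 lie inside the dashed 1.5-fold lines. With ICG-001 7 of 8 lie to the right of 0, Dvl1 by only 0.06. Genes more than 2 log2 units from 0 are beyond the axes.

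The level of Ctnnb1 was set beside those of all other genes by the distance between their profiles over the 6 arrays, each gene's own mean removed. The nearest were Lactb, Vgll4, H2bc1, Ndufa3 and Dnm2, at distances of 0.09, 0.12, 0.13, 0.15 and 0.17 log2 units. Among the measured members the nearest were Dvl3 (0.43, rank 431 of 10024 genes) and Dvl1 (0.45, rank 488), and the farthest Axin1 (1.38, rank 8542). All profiles share the same 6 arrays.

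The other genes of the pathway were taken from 5 lists by role, which held 123 genes, of which 104 were measured and 93 were past the level filter. With Ad.DKK-1, 10 of the 93 were at least 1.5-fold higher and 18 lower (30.1%, against 35.2% of all genes). With ICG-001, 12 were higher and 10 lower (23.7% against 25.7%), and with FJ9, 7 were higher and 19 lower (28.0% against 26.4%). Between the vehicle arrays 1 gene was past 1.5-fold. In all 3 treatments and in the same direction, 7 of the 93 were past 1.5-fold (7.53%, against 5.56% of all genes): Ruvbl2, Cited2 and Prmt1 higher, and Amer1, Prickle1, Prickle2 and Jup lower. Against the other vehicle Amer1 was no longer past 1.5-fold with ICG-001.

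Among 23 partners of the destruction complex and of β-catenin turnover, 1 was higher and 5 lower with Ad.DKK-1, 2 higher and 3 lower with ICG-001, and 2 of each with FJ9. Of all genes, 14.5% were higher and 20.8% lower with Ad.DKK-1, 12.6% and 13.1% with ICG-001, and 11.6% and 14.8% with FJ9. Axin2, the scaffold that Wnt signalling itself induces, opposed Axin1. It read 7.12 with Ad.DKK-1 and 9.08 with Ad.GFP, 8.82 with ICG-001 and 8.94 with its vehicle, and 6.23 with FJ9 and 8.77 with its vehicle. Only the Ad.DKK-1 and FJ9 arrays were low. Axin2 was 5.82-fold lower with FJ9 while Axin1 was 1.83-fold higher. Amer1, which brings the complex to the membrane, differed by −1.06 with Ad.DKK-1, −0.78 with ICG-001 and −0.96 with FJ9, beside −0.58 between the vehicle arrays. Against the other vehicle Amer1 differed by −0.19 with ICG-001 and by −1.54 with FJ9. Apc2, a relative of Apc, differed by −1.26 with Ad.DKK-1 and −0.94 with ICG-001. Rnf146, a ubiquitin ligase that removes Axin, was 0.63 higher with ICG-001, and the casein kinase gene Csnk1e was 0.77 higher with FJ9. The list medians were −0.15, 0.02 and 0.02, beside −0.07, 0.01 and 0.01 over all genes.

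Of 24 TCF/LEF factors and nuclear partners or repressors of β-catenin, 4 were higher and 4 lower with Ad.DKK-1, 3 higher and 2 lower with ICG-001, and 1 higher and 6 lower with FJ9, with list medians of −0.26, 0.19 and −0.22, beside −0.07, 0.01 and 0.01 over all genes. The matching shares of all genes higher and lower were 14.5% and 20.8%, 12.6% and 13.1%, and 11.6% and 14.8%. The FJ9 count depended on the setting. Against the other vehicle 2 were higher and 3 lower with FJ9, with a median of −0.30, and 2 higher and 1 lower with ICG-001. With the mean of a gene's probe sets, 1 was higher and 4 lower with FJ9. Tle1, a Groucho corepressor of TCF/LEF factors, stood out with Ad.DKK-1, where it read 9.30 against 7.49 with Ad.GFP (3.51-fold higher). With ICG-001 and FJ9 it differed by 0.23 and 0.14. Its relative Tle2 differed by −0.72 with ICG-001, but by −0.22 against the other vehicle. Ruvbl2, a subunit of chromatin remodelling complexes, was higher by 0.68 with Ad.DKK-1, 0.81 with ICG-001 and 0.84 with FJ9, and its partner Ruvbl1 by 0.71 with ICG-001, or 0.48 against the other vehicle, inside 1.5-fold. Tbl1xr1, an exchange factor on corepressor complexes, differed by −0.93 with Ad.DKK-1 and −0.87 with FJ9, Cdc73 of the PAF1 transcription complex by 0.95 with Ad.DKK-1, and the β-catenin coactivator gene Bcl9l by −0.71 with FJ9. Lef1, under the level filter, read 5.70 with Ad.DKK-1 and 4.67 with Ad.GFP, 4.73 with ICG-001 and 5.75 with its vehicle, and 4.84 with FJ9 and 5.41 with its vehicle.

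The list around CBP and p300 had medians above 0 in every treatment, 0.21, 0.46 and 0.32, beside −0.07, 0.01 and 0.01 over all genes. Of its 17 genes, 2 were higher with Ad.DKK-1, 5 with ICG-001 and 3 with FJ9, while 14.5%, 12.6% and 11.6% of all genes were, so that the Ad.DKK-1 count is no more than that share. None was at least 1.5-fold lower in any of them, while 20.8%, 13.1% and 14.8% of all genes were. Against the other vehicle 6 were higher and 1 lower with ICG-001, and 4 higher and 1 lower with FJ9. The ICG-001 count of higher genes was 9 after median centring and 3 after loess correction, with medians of 0.64 and 0.35. Cited2, whose protein binds CBP and p300, read 11.35 with Ad.DKK-1 and 10.21 with Ad.GFP, 12.06 with ICG-001 and 11.01 with its vehicle, and 12.05 with FJ9 and 11.13 with its vehicle. It was higher than its own control each time, by 2.21-fold, 2.07-fold and 1.89-fold, although the Ad.DKK-1 array lay close to the vehicle arrays. The arginine methyltransferase gene Prmt1 was higher by 0.61, 0.69 and 0.75. Its 2 probe sets had the same mean level (10.91) and the same differences to 2 decimals, so they are not counted as independent measurements. The steroid receptor coactivator gene Ncoa1 was higher by 0.65 with ICG-001. The acetyltransferase gene Kat2a was higher by 0.69 with FJ9, and by 1.36 against the other vehicle, since it also differed by 0.67 between the vehicle arrays.

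Of 19 Dishevelled partners and regulators, 2 were higher and 5 lower with Ad.DKK-1, 2 higher and 4 lower with ICG-001, and 1 higher and 5 lower with FJ9. The shares of all genes were 14.5% and 20.8%, 12.6% and 13.1%, and 11.6% and 14.8% in the same order. The medians were 0.05, 0.22 and −0.17, beside −0.07, 0.01 and 0.01 over all genes. Nkd1, a feedback inhibitor that binds Dishevelled, read 8.68 with Ad.DKK-1 and 9.97 with Ad.GFP, 8.41 with ICG-001 and 9.41 with its vehicle, and 8.93 with FJ9 and 9.09 with its vehicle. Unlike Dvl1 it was thus low with ICG-001 and close to its own vehicle with FJ9. Nkd1 also differed by −0.33 between the vehicle arrays, and against the other vehicle its ICG-001 difference was −0.68. The FJ9 array lay below all 3 controls, so this contrast with Dvl1 depended on the vehicle. Prickle1 and Prickle2, which act with Dishevelled in planar cell polarity, were lower in all 3 treatments, most with FJ9 (−0.99 and −1.11). Dixdc1, which shares a DIX domain with Dishevelled, differed by −1.47 with Ad.DKK-1, and the kinesin gene Kif26b by −0.93 with ICG-001 and −0.83 with FJ9. Against the other vehicle Kif26b differed by −0.46 with ICG-001, inside 1.5-fold, and by −1.31 with FJ9. The ubiquitin ligase gene Nedd4l took opposite directions, −1.04 with Ad.DKK-1 and 0.75 with ICG-001, the second being 0.50 against the other vehicle, inside 1.5-fold.

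The adherens junction list, the partners of β-catenin at the membrane, had medians below 0 in every treatment. Of 10 genes, 1 was higher and 4 lower with Ad.DKK-1, none higher and 1 lower with ICG-001, and none higher and 6 lower with FJ9, with medians of −0.54, −0.33 and −0.79. Of all genes 20.8%, 13.1% and 14.8% were lower, so that the ICG-001 count is not above that share, although against the other vehicle 3 of 10 were lower and 1 higher with ICG-001. Jup, which encodes the β-catenin relative plakoglobin, read 10.42 with Ad.DKK-1 and 11.59 with Ad.GFP, 10.81 with ICG-001 and 11.58 with its vehicle, and 9.45 with FJ9 and 11.50 with its vehicle. The 3 controls lay close together and every treated array was below them. Jup was 2.26-fold lower with Ad.DKK-1, 1.70-fold with ICG-001 and 4.17-fold with FJ9, and its difference minus that of Ctnnb1 was −0.78, −0.96 and −1.55. N-cadherin Cdh2 differed by −1.17 and Cdh13 by −0.97 with Ad.DKK-1. The vinculin gene Vcl differed by −1.61 with FJ9 and the adhesion gene Nectin2 by −1.12.

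**Figure D4:**
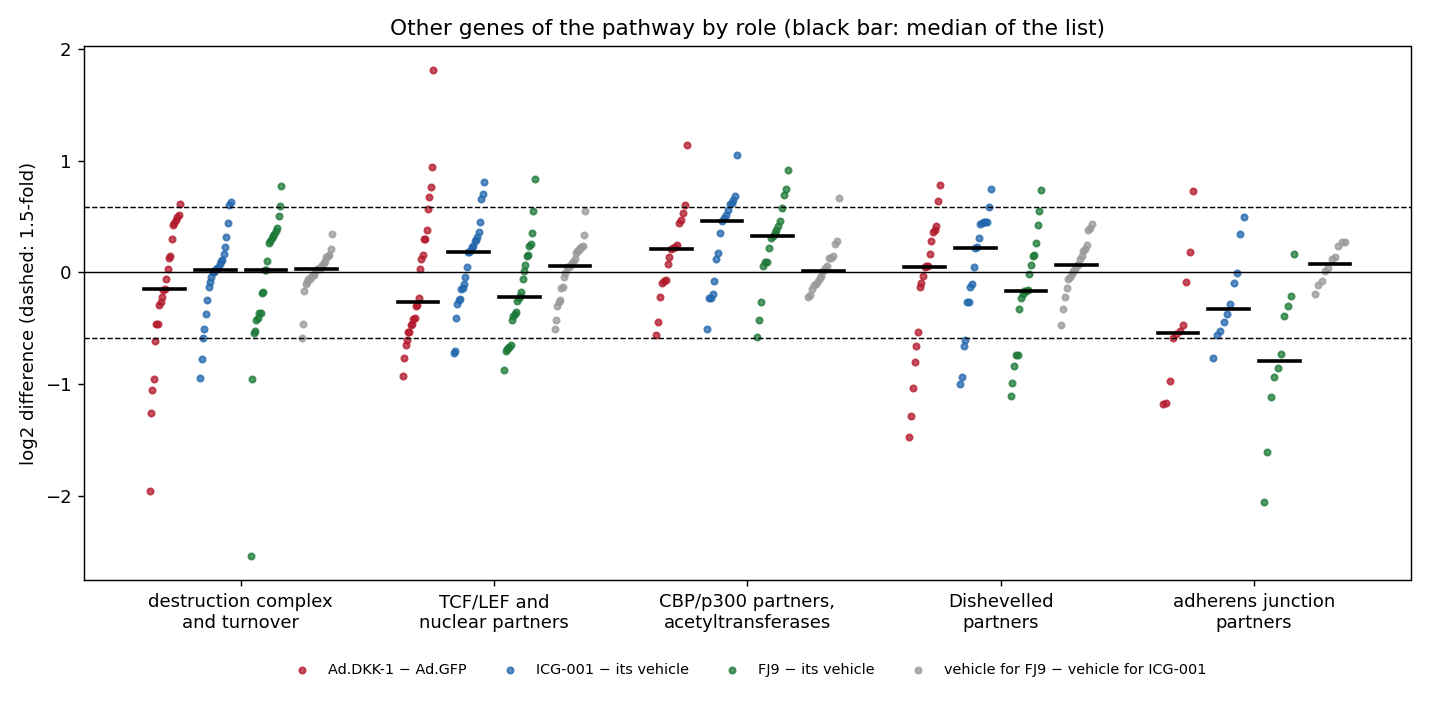
Log2 differences of the 93 other pathway genes past the level filter, 1 point per gene, grouped into 5 lists by role; within each list the columns are Ad.DKK-1, ICG-001 and FJ9, each minus its own control, and vehicle for FJ9 minus vehicle for ICG-001 (grey), with black bars at the medians. The CBP and p300 list has medians above 0 in all 3 treatments and the adherens junction list below 0, while the medians between the vehicle arrays run from 0.02 to 0.08.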

How the data were processed

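Total RNA was copied into biotin-labelled single-stranded DNA and hybridised, per the labels' protocols. The authors deposited log2 expression values, made with Affymetrix Expression Console and RMA per the submitters' processing notes; the sources used here name no versions and no genome build, so no coordinates are given. Values were used as deposited. Probe sets were named from the platform annotation, where 15092 of 26988 had 1 gene symbol, 323 had several and 11573 were unnamed; 15062 matched the GRCr8 RefSeq gene table and 0 symbols changed. The probe set with the highest mean stood for a gene, and the lowest 30% of genes by mean level (up to 6.39) were left out. Array medians ran from 7.01 to 7.28, and the number of arrays limits the precision.

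Each treated array's log2 value minus that of its own control was counted at 1.5-fold, with no test. limma 3.58.1 in R 4.3.3 (lmFit, eBayes with trend, two-sided) tested the mean over the 3 pairs and was checked on simulated data. Alternatives were median centring, repeated quantile normalization, loess correction, the other vehicle, the mean of a gene's probe sets, no level filter and 2-fold. The members and lists were chosen with earlier results of these data known. Named besides the members are up to 3 genes past 1.5-fold per list and treatment with the largest differences, Axin2, Nkd1, Lef1, Dkk1, and the 5 nearest to Ctnnb1.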

Additional observations from a re-analysis of the deposited data

How the results depend on the processing

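All 144 recomputed differences of the 8 genes stayed within 0.34 of the value given, the standard deviation between the vehicle arrays. Part of that was fixed in advance. Each gene has 1 probe set, so averaging probe sets changes nothing, and median centring adds a constant per comparison. The other vehicle shifts a value only by the gap between the vehicle arrays. No difference past 1.5-fold changed sign, but smaller ones did. Dvl1 with ICG-001 went from 0.06 to −0.26 against the other vehicle. Ep300 and Apc with Ad.DKK-1, Gsk3b with FJ9, and Ctnnb1, Crebbp and Dvl3 between the vehicle arrays also changed sign in some settings. Counts near the threshold moved. With Ad.DKK-1, 0 of 8 genes were past 1.5-fold after repeated quantile normalization. With ICG-001, 2 were after median centring, 2 against the other vehicle and 0 after loess correction. At 2-fold, 0 of 8 remained in any treatment, and 1193, 619 and 846 genes in all with Ad.DKK-1, ICG-001 and FJ9, and 114 between the vehicle arrays, since a higher threshold passes fewer. Without the level filter, which adds genes, 5314 were past 1.5-fold with Ad.DKK-1 and 1533 between the vehicle arrays. Median centring shifts all differences by 0.17 with ICG-001 and by 0.13 between the vehicle arrays. The split of higher and lower genes was 1449 and 2082 with Ad.DKK-1 and became 1874 and 1681 with centring. With ICG-001 it was 1267 and 1314 and became 2218 and 754. Between the vehicle arrays it was 245 and 521 and became 575 and 265 with centring, 456 and 409 with quantile normalization and 326 and 389 with loess correction. limma called 860 genes, 538 after median centring (the cause was not tested), and between 570 and 722 when 1 pair was left out, the fewest without the ICG-001 pair; none of the 8 genes was called in any of these fits. No paired analysis was possible by replicate number because the labels give none; the pair of treated array and control is the block in the fit.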
